A study of Mus musculus with 9 samples.

Results

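A set of 10 genes that neurons switch on or adjust with activity was followed in ribosome-associated RNA of parvalbumin inhibitory neurons (PV INs) from the hippocampal CA3/CA2 region. They are the 3 Nr4a nuclear receptors (Nr4a1, Nr4a2, Nr4a3), the transcription factor gene Npas4, and Arc, Nptx2, Inhba, Vgf, Scg2 and Dusp1. The genes were chosen by name, with earlier results of these data known, and all 10 members were found among the 37620 identifiers counted. All 10 also passed the filter on low counts that left 15069 genes tested.

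Activity in a neuron raises calcium, and calcium-driven kinases and phosphatases act on factors such as CREB, SRF and MEF2 that already sit at promoters. A first wave of genes follows, among them other transcription factors (Npas4, the Nr4a family, Fos, Egr1) and a few genes such as Arc that act at the synapse directly. Later genes encode secreted or synaptic proteins. Npas4 is known for responding to calcium entry with little response to other stimuli, and Nptx2 is known in the hippocampus as a protein that excitatory axons deposit at their synapses onto PV INs.

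The mice carried PV-Cre and Rpl22-HA. In this system a ribosomal protein gains a hemagglutinin (HA) tag in cells where Cre has acted, so that antibodies to HA pull down ribosomes with the RNA bound to them. Both groups received a lentivirus into the dentate gyrus (DG) at 2 months of age, which carried a non-target shRNA (shNT) or an shRNA against Ablim3 (shRNA), a gene that restrains the contacts of DG mossy fibers with PV INs. CA3/CA2 tissue was collected 2 weeks later, and each sample pooled 6 mice, stated as 3 males and 3 females. There were 5 shNT and 4 shRNA samples, so the comparison asks which genes differ in this pulldown between mice given either virus in DG. The shRNA acts in DG, whereas the RNA comes from CA3/CA2, so the level of Ablim3 in these libraries (16.9 CPM in shNT and 18.5 CPM in shRNA, edgeR FDR = 0.701) does not check the knockdown.

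Some libraries differed in ways that the groups do not describe. Counts on genes ran from 18281719 to 34578837 per library. Reads outside annotated exons made up 9.77% to 18.6% of unique reads in the shNT libraries and 12.4% to 27.2% in the shRNA libraries, with the highest shares in shNT replicate 2 and shRNA replicate 4 of each group. The pools stated to hold both sexes did not all look so: shNT replicate 1 had Xist at 0.105 CPM where the other libraries had at least 15.7 CPM, and shNT replicate 5 had the Y-linked Ddx3y at 0.116 CPM where the others had at least 22 CPM. The sample names fall into a set numbered 31 (shNT replicates 1 to 3 and shRNA replicates 1 to 3) and a set numbered 32 (shNT replicates 4 and 5 and shRNA replicate 4). What the set marks is not stated in the labels or methods. Results are given below without these libraries where leaving them out changed a call or a count of the genes described.

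The cell type labels were checked against marker genes. Pvalb was at 678 to 1380 CPM in the shNT libraries and 310 to 705 CPM in the shRNA libraries, and Gad1, which makes the enzyme for GABA synthesis, was at 1230 to 3560 CPM over all 9. Markers of other cells were present too. Slc17a7, the vesicular glutamate transporter of pyramidal neurons, stood at 140 to 336 CPM in shNT and 378 to 516 CPM in shRNA libraries, and Prox1, which marks DG granule cells, at 14.6 to 29.8 and 31.6 to 46.3 CPM. Both separated the groups without overlap, with shRNA above as in 8.97% of all genes tested. Within the marker lists of these cells some other genes overlapped between groups, such as Bok and C1ql2, and others did not, such as Grik4 and Lct. The levels of these lists stand beside the members' results below.

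Promoter windows show which of the genes carry the sequence that CREB recognises. The windows run from 250 bases before to 50 after each gene's start (RefSeq, build GRCm38.p6, whereas the counts use mm9), and 7 of the 10 genes had one: the 3 Nr4a genes, Npas4, Inhba, Scg2 and Dusp1. The core of the cAMP response element (CRE), TGACG on either strand, occurred 4 times in each Nr4a promoter, 2 times in that of Npas4 and 3 times in that of Dusp1. In Scg2 it occurred 2 times, as the overlapping arms of 1 full CRE (TGACGTCA), and the Dusp1 window also held 1 full CRE. The Inhba window had 0 cores. Of all 32851 windows of this length, 20.8% held at least 1 core and 1.79% a full CRE. The stretches that hold the cores are printed 5′ to 3′ on the gene's strand, with the CRE core or full CRE in capitals, for all 6 genes with a core, so that the 4 transcription factor genes can be set beside Scg2 and Dusp1.
Npas4, chr19:4990124-4990162, minus strand: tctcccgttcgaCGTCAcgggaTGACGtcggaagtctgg
Nr4a1, chr15:101266601-101266822, plus strand: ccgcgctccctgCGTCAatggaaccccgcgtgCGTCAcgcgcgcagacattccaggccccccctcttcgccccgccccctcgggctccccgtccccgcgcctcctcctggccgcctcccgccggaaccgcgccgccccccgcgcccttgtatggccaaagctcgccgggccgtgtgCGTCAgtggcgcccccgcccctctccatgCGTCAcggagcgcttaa
Nr4a2, chr2:57124098-57124215, minus strand: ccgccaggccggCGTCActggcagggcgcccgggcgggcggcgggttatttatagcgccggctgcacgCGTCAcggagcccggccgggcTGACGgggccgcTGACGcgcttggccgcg
Nr4a3, chr4:48045062-48045174, plus strand: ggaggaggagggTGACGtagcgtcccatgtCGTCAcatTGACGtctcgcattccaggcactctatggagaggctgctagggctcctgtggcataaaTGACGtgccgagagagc
Scg2, chr1:79440075-79440106, minus strand: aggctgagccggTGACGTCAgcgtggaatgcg
Dusp1, chr17:26508596-26508675, minus strand: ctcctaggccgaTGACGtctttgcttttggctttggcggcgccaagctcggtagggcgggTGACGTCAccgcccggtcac

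All of these stretches lie upstream of the start, the nearest core being 1 of Nr4a1, at -40 to -36 from it. A TATAAA box lay at -91 to -86 in Inhba and, on the opposite strand, at -164 to -159 in Nr4a2, each overlapping a match to the MEF2 site. TATAAA was found in 13.6% and the MEF2 site in 1.86% of all windows. The serum response element (1.63% of all windows) and AAAGGTCA, the element that Nr4a proteins bind as monomers (1.51%), matched in 0 of the 7 windows, which says only that these letters are not there. A match is a description of the sequence and not a bound site.

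With levels given as CPM, the counts scaled to library size and normalised with TMM, 6 of the 10 genes had higher means in the shRNA libraries (Npas4, Arc, Nr4a2, Inhba, Nr4a3 and Nr4a1) and 4 had lower means (Dusp1, Scg2, Vgf and Nptx2). Fold changes were largest for Npas4 (2.53-fold), Arc (2.27-fold), Inhba (2.09-fold) and Nr4a2 (2.07-fold). By edgeR's quasi-likelihood test a gene was called with a change of at least 1.5-fold and a Benjamini-Hochberg FDR, over all genes, under 0.05, and 0 of the 10 were called in either direction. The same test called 1.74% of the 15069 genes tested higher and 0.0133% lower. With an unadjusted p under 0.05 as the limit, 6 of the 10 were higher and 0 lower, beside 20.7% of all genes higher and 13.4% lower. The median log2 fold change of the 10 was 0.68, where that of all genes tested was 0.11.

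The call depended on the test. edgeR's likelihood ratio test called 4 of the 10 higher (Arc, Nr4a2, Nr4a3 and Npas4) and 0 lower, beside 11.2% and 3.6% of all genes tested. DESeq2 called the same 4 genes higher and 0 lower, beside 10.2% and 5.57% of the genes it gave an adjusted p. Groups did not overlap for 2 of the 10, Npas4 and Arc, both with shRNA above shNT. Over all genes tested, the shRNA libraries lay wholly above the shNT libraries in 8.97% and wholly below them in 6.68%.

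**Figure D1:**
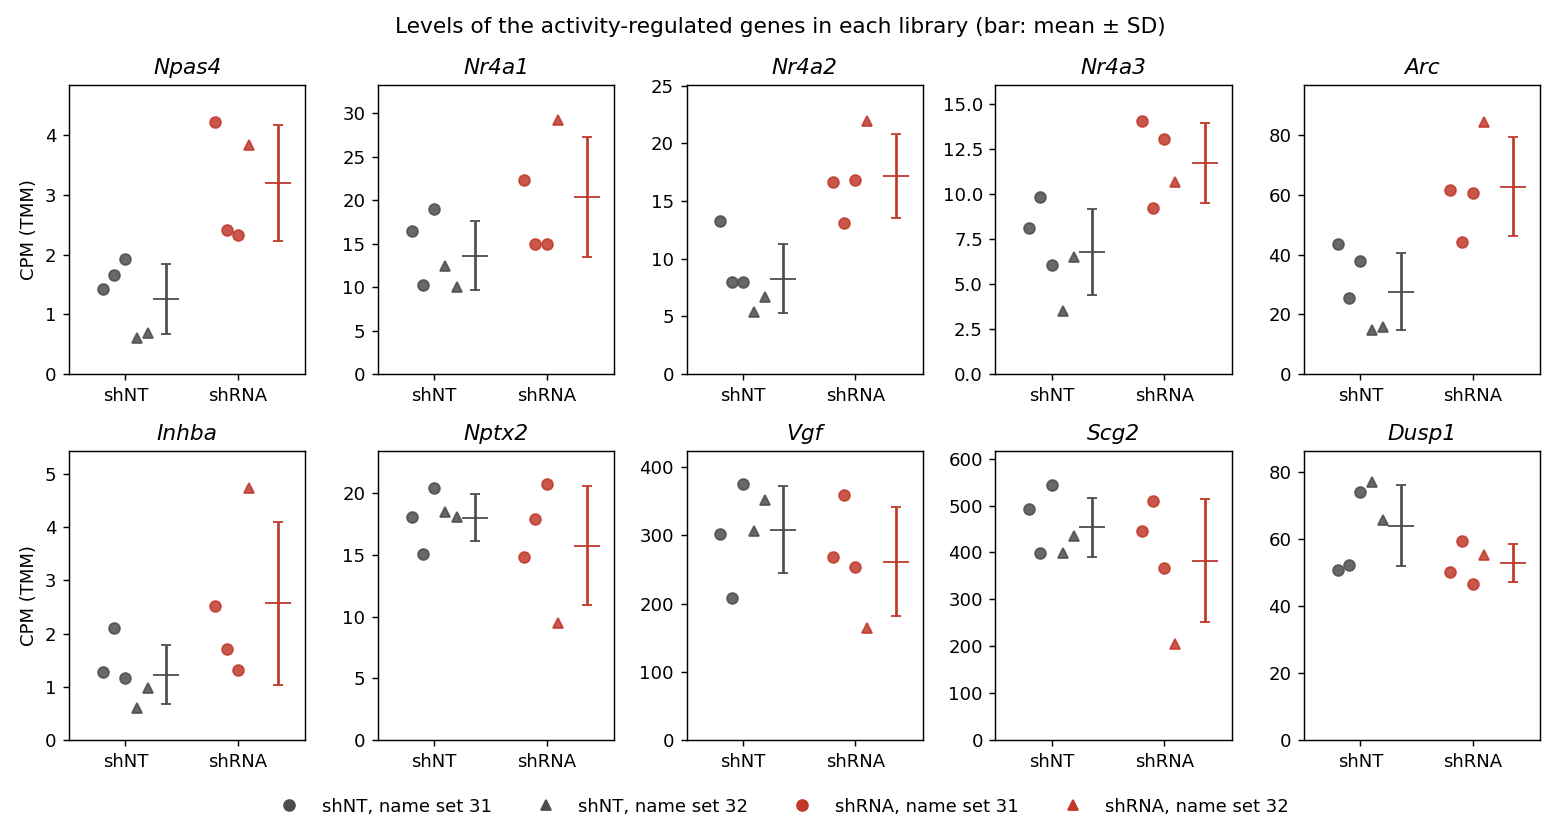
Level of each of the 10 genes in every library, in CPM normalised with TMM on linear axes that start at 0, for shNT (n = 5) and shRNA (n = 4); circles and triangles mark the name sets 31 and 32, and bars give mean ± SD. The groups are apart for Npas4 and Arc, and for both the shNT libraries of set 32 sit below those of set 31.

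Npas4 (ENSMUSG00000045903, chromosome 19 from 4984355 to 4989971 in mm9, minus strand) encodes a neuronal transcription factor that pairs with ARNT proteins. Replicates 1 to 5 of shNT held 1.42, 1.65, 1.92, 0.605 and 0.690 CPM, and replicates 1 to 4 of shRNA held 4.22, 2.42, 2.32 and 3.83 CPM. Every shRNA library stood above every shNT library. The shNT mean was 1.26 ± 0.585 CPM (SD, n = 5) and the shRNA mean 3.20 ± 0.971 CPM (SD, n = 4). The log2 fold change was 1.34 (standard error 0.39, 95% interval 0.50 to 2.19, edgeR quasi-likelihood FDR = 0.0651). The FDR was 0.0170 with the likelihood ratio test and 0.0165 with DESeq2, and an exact two-sided permutation test gave p = 0.0159. These levels rest on few reads, 12 to 56 per shNT library and 44 to 127 per shRNA library. With single libraries left out, the log2 fold change of Npas4 ran from 1.08 to 1.47, with edgeR quasi-likelihood FDR from 0.0604 to 0.169. Npas4 was not called in any of these fits.

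Nr4a2 (ENSMUSG00000026826, chromosome 2 from 56959241 to 56976414, minus strand), like its relatives, encodes a nuclear receptor that works without a known ligand and is made within minutes to hours of stimulation. Over shNT replicates 1 to 5 it stood at 13.3, 7.99, 7.99, 5.40 and 6.65 CPM. Over shRNA replicates 1 to 4 it stood at 16.7, 13.1, 16.8 and 21.96 CPM. The groups met only at shNT replicate 1, which lay just above shRNA replicate 2. The shNT mean was 8.26 ± 3.00 CPM (SD, n = 5) and the shRNA mean 17.1 ± 3.64 CPM (SD, n = 4), and the difference was 1.05 on the log2 scale (standard error 0.25, 95% interval 0.49 to 1.61). The edgeR quasi-likelihood FDR of 0.0544 missed the threshold by little, whereas the likelihood ratio test gave FDR = 0.00579 and DESeq2 0.0055. With single libraries left out there were differences from 0.85 (without shNT replicate 4) to 1.29 on the log2 scale (without shNT replicate 1), with edgeR quasi-likelihood FDR from 0.0184 to 0.169. Among these fits the gene was called only without shNT replicate 1.

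Nr4a3 (ENSMUSG00000028341, chromosome 4 from 48058025 to 48099319, plus strand) had 8.11, 9.82, 6.04, 3.48 and 6.49 CPM in the shNT libraries and 14.1, 9.20, 13.03 and 10.6 CPM in the shRNA libraries. Only shNT replicate 2 reached into the shRNA range. The shNT mean was 6.79 ± 2.37 CPM (SD, n = 5) and the shRNA mean 11.7 ± 2.21 CPM (SD, n = 4). This gave a log2 fold change of 0.79 (standard error 0.27, edgeR quasi-likelihood FDR = 0.0806). Nr4a1 (ENSMUSG00000023034, chromosome 15 from 101097277 to 101105223, plus strand) had the smallest difference of the family. It stood at 16.4, 10.3, 19.0, 12.4 and 10.04 CPM in shNT and 22.3, 15.0, 14.9 and 29.2 CPM in shRNA libraries. Its means of 13.6 ± 3.94 CPM (SD, n = 5) for shNT and 20.4 ± 6.86 CPM (SD, n = 4) for shRNA gave 0.58 on the log2 scale (standard error 0.26, edgeR quasi-likelihood FDR = 0.141). shRNA replicates 2 and 3 lay within the shNT range, and without shRNA replicate 4 the difference was 0.34 (FDR range over single libraries left out 0.105 to 0.362). Whether the 3 Nr4a genes differ from each other in response was not tested.

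Arc (ENSMUSG00000022602, chromosome 15 from 74499513 to 74503000, minus strand) encodes a protein that draws AMPA receptors away from the synaptic membrane, with dynamin and endophilin as partners. Replicates 1 to 5 of shNT held 43.7, 25.6, 37.8, 14.9 and 15.9 CPM, and replicates 1 to 4 of shRNA held 61.5, 44.3, 60.6 and 84.5 CPM. The groups were apart, though shNT replicate 1 and shRNA replicate 2 nearly met. The shNT mean was 27.6 ± 12.9 CPM (SD, n = 5) and the shRNA mean 62.7 ± 16.5 CPM (SD, n = 4). The log2 fold change was 1.19 (standard error 0.32, 95% interval 0.48 to 1.89, edgeR quasi-likelihood FDR = 0.0630). The FDR was 0.00861 with the likelihood ratio test and 0.00911 with DESeq2, and the exact two-sided permutation p was 0.0238. Left out 1 at a time, the libraries gave log2 fold changes from 0.94 (without shNT replicate 4) to 1.41 (without shNT replicate 1), with edgeR quasi-likelihood FDR from 0.0362 to 0.169. Among these fits Arc was called only without shNT replicate 1.

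Inhba (ENSMUSG00000041324, chromosome 13 from 16103684 to 16119044, plus strand) encodes the subunit of activin A, a secreted factor of the TGF-beta family. It had 1.28, 2.11, 1.17, 0.605 and 0.972 CPM in shNT and 2.53, 1.71, 1.32 and 4.74 CPM in shRNA libraries. The log2 fold change of 1.07 (standard error 0.44, edgeR quasi-likelihood FDR = 0.117) leaned on shRNA replicate 4, without which it was 0.57. Replicates 2 and 3 of shRNA lay within the shNT range.

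Nptx2 (ENSMUSG00000059991, chromosome 5 from 145306756 to 145318347, plus strand) encodes a secreted pentraxin that clusters AMPA receptors. It stood at 18.1, 15.1, 20.4, 18.5 and 18.1 CPM in shNT and 14.8, 17.9, 20.7 and 9.52 CPM in shRNA libraries. The shNT mean was 18.0 ± 1.91 CPM (SD, n = 5) and the shRNA mean 15.7 ± 4.80 CPM (SD, n = 4). The log2 fold change was -0.20 with a 95% interval of -0.65 to 0.26 (edgeR quasi-likelihood FDR = 0.513), so an increase as large as those of Npas4, Arc or Nr4a2 lay outside the interval. The lowest value was again that of shRNA replicate 4, without which the difference was -0.03.

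Vgf and Scg2 encode proteins of secretory granules that are cut into peptides, and both were among the most abundant of the 10 genes. Vgf (ENSMUSG00000037428, chromosome 5 from 137506165 to 137509221, plus strand) had 301.7, 207.5, 374.6, 306 and 352 CPM in shNT and 268.5, 359, 254 and 164 CPM in shRNA libraries. Scg2 (ENSMUSG00000050711, chromosome 1 from 79431244 to 79436665, minus strand) had 491.5, 399.6, 543.5, 397.7 and 435.8 CPM in shNT and 445.4, 510 and 367.4 CPM in shRNA replicates 1 to 3, with 205.6 CPM in replicate 4. Both genes were lowest in shRNA replicate 4. Their log2 fold changes were -0.24 (95% interval -0.76 to 0.28) for Vgf and -0.25 (95% interval -0.78 to 0.28) for Scg2, with edgeR quasi-likelihood FDR of 0.483 and 0.475. Without shRNA replicate 4 they were -0.08 and -0.05.

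Dusp1 (ENSMUSG00000024190, chromosome 17 from 26642535 to 26645464, minus strand) encodes a nuclear phosphatase that switches off MAP kinases. Its levels were 50.9, 52.4, 74.2, 77.0 and 65.8 CPM in shNT and 50.2, 59.5, 46.5 and 55.3 CPM in shRNA libraries. The groups overlapped, with the 3 highest values all in shNT libraries. Its log2 fold change was -0.28 (standard error 0.16, 95% interval -0.63 to 0.07, edgeR quasi-likelihood FDR = 0.232).

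**Figure D2:**
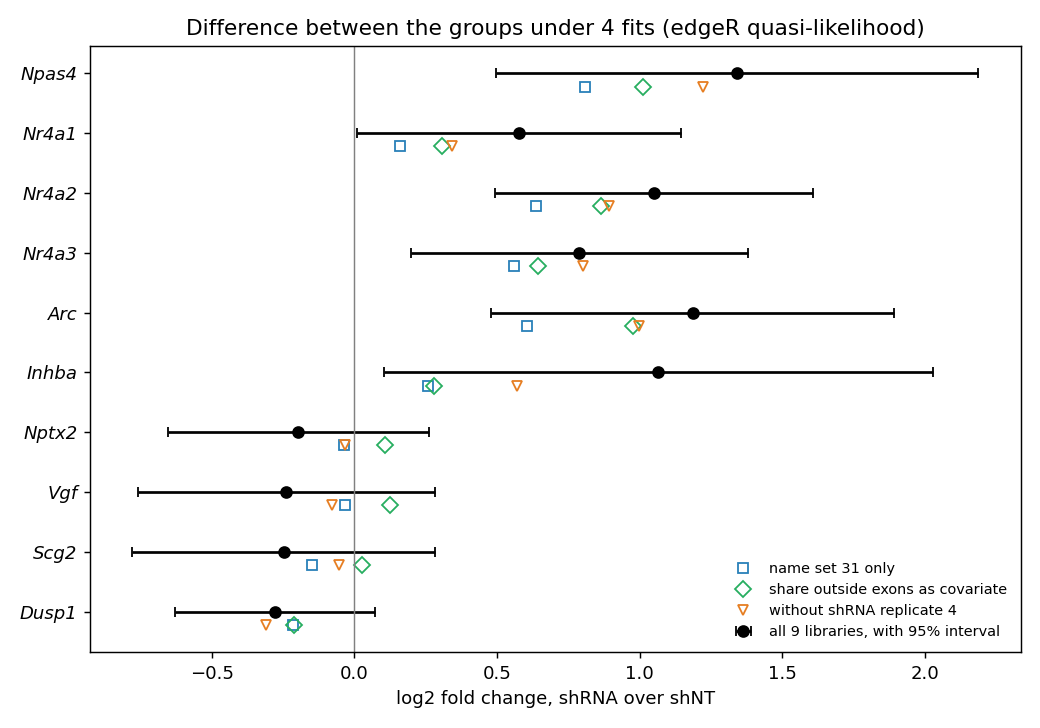
Log2 fold change of shRNA over shNT for each of the 10 genes by edgeR's quasi-likelihood fit on all 9 libraries, with 95% intervals, and under 3 other fits (open symbols: name set 31 only, reads outside exons as a covariate, and without shRNA replicate 4). For Arc the value went from 1.19 with all libraries to 0.61 within set 31, and for Inhba from 1.07 to 0.26.

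Within set 31 alone, with 3 libraries in each group, the 6 genes that had higher means kept a positive difference, at smaller sizes. The log2 fold change there was 0.81 for Npas4, 0.64 for Nr4a2, 0.61 for Arc, 0.56 for Nr4a3, 0.26 for Inhba and 0.16 for Nr4a1. At an unadjusted p under 0.05, 3 of the 10 were higher (Npas4, Nr4a2 and Arc), beside 6.88% of all genes in that fit, and 0 of the 10 were called. Set 32 holds 1 shRNA library and gives no test of its own. In the shNT group the sets did not overlap for Arc, Npas4, Nr4a2 and Inhba and overlapped for Nr4a1 and Nr4a3. Arc was at 25.6 to 43.7 CPM in set 31 and at 14.9 to 15.9 CPM in set 32, Npas4 at 1.42 to 1.92 and 0.605 to 0.690 CPM, Nr4a2 at 7.99 to 13.3 and 5.40 to 6.65 CPM, and Inhba at 1.17 to 2.11 and 0.605 to 0.972 CPM. With the set as a term in the fit of all 9 libraries, the log2 fold changes were 1.38 for Npas4, 1.23 for Arc and 1.05 for Nr4a2.

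Markers of other cells moved with these genes. The mean log2 level of the markers for CA3 and CA2 pyramidal neurons was 0.70 higher in the shRNA libraries, above every shNT library (exact two-sided permutation p = 0.00794, the smallest this design allows, adjusted p = 0.0476 over 12 lists). Their summed level was 572 to 1430 CPM in shNT and 1480 to 1870 CPM in shRNA libraries. The level of DG granule cell markers was 1.15 higher (permutation p = 0.0397, adjusted p = 0.0680), with sums of 29.0 to 70.2 and 69.8 to 120 CPM. All 9 pyramidal and all 6 granule cell markers had counts in every library. The PV IN list was 0.46 lower in shRNA libraries, which did not pass its test (permutation p = 0.119, adjusted p = 0.179), with sums of 5280 to 8570 CPM in shNT and 3120 to 7570 CPM in shRNA libraries.

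The astrocyte list was 1.05 higher (permutation p = 0.0159, adjusted p = 0.0635), and 0.49 higher without shRNA replicate 4, in which Aqp4, the water channel of astrocytes, was at 294 CPM against 25.2 to 47.3 CPM in the other 8 libraries. The oligodendrocyte precursor list was 1.07 higher (permutation p = 0.00794, adjusted p = 0.0476). Lists that also had an unadjusted permutation p under 0.05 but missed it after adjustment were other interneurons (0.35), oligodendrocytes (0.81) and choroid plexus (0.61), each with an adjusted p of 0.0680. The list of other interneurons went both ways. Its summed level was 538 to 913 CPM in shNT and 368 to 723 CPM in shRNA libraries, its most abundant markers Sst, Npy and Cck had log2 fold changes of -0.45, -0.50 and -0.47 (edgeR quasi-likelihood FDR = 0.254, 0.273 and 0.161), and Reln (1.16, FDR = 0.0414) and Cnr1 (1.19, FDR = 0.0404) were called higher. Microglia (0.31), endothelial cells (-0.08), mural cells (0.07) and nuclear-retained noncoding RNAs (1.11) had adjusted p of 0.276, 0.960, 0.960 and 0.191. In shNT replicates 4 and 5, where Arc and Npas4 were lowest, the granule cell level was also lowest (-0.78 and -0.70 relative to the mean of the shNT libraries) and so was the pyramidal level (-0.52 and -0.29). The part of these cells in the members' differences was not tested. In tissue pulldowns fewer cells of a type and less RNA per cell cannot be told apart.

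**Figure D3:**
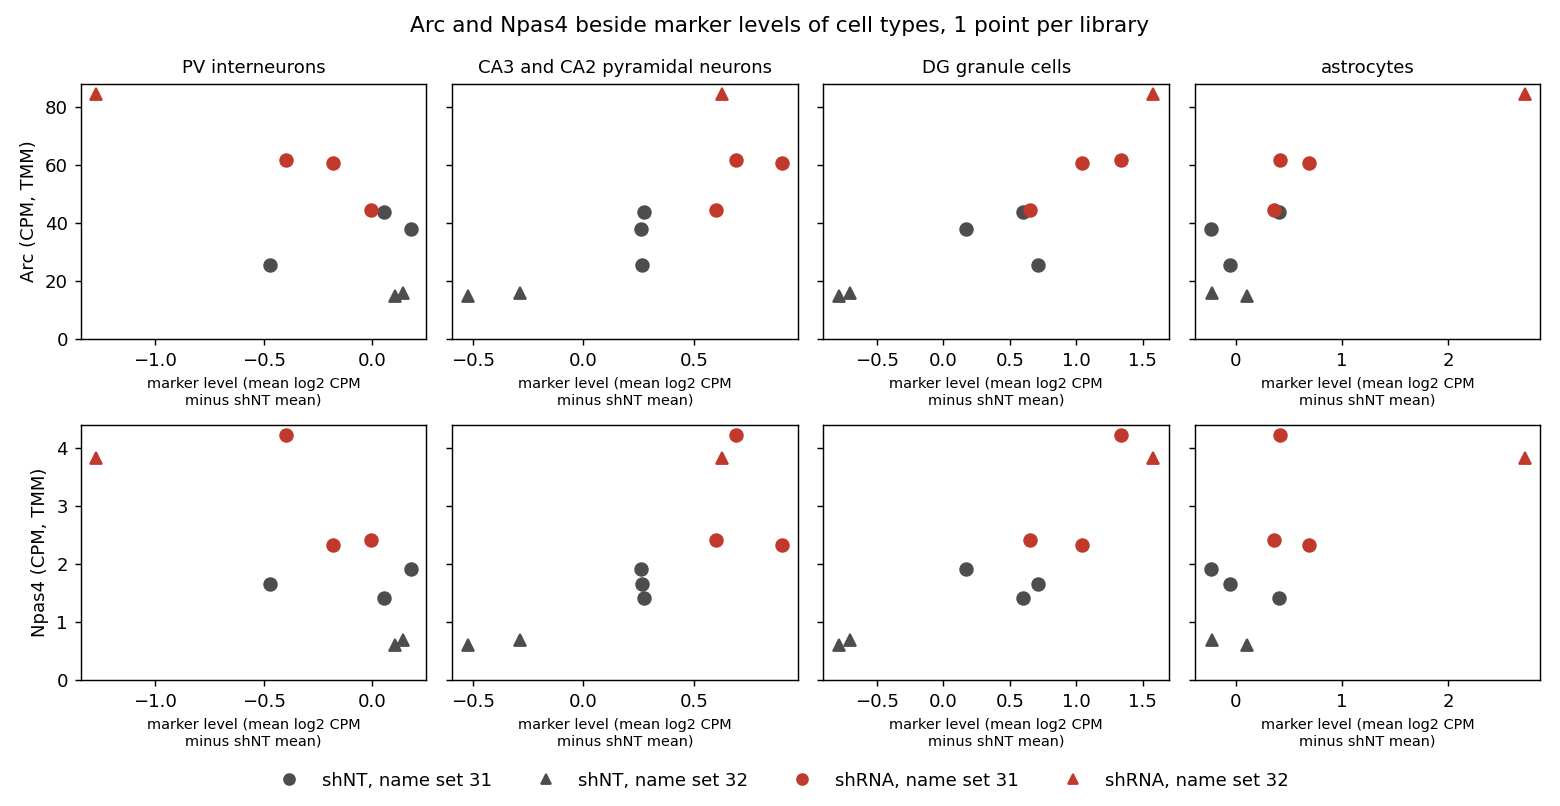
Arc (top) and Npas4 (bottom) in CPM normalised with TMM against the mean log2 marker level of 4 cell types relative to the shNT mean, 1 point per library, with colours for the groups and circles and triangles for name sets 31 and 32. shNT replicates 4 and 5 are lowest for both genes and for the pyramidal and granule cell markers, and shRNA replicate 4 has the lowest PV IN level (-1.27) and the highest astrocyte level (2.72).

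The share of reads outside exons was 12.1% ± 3.67 (SD, n = 5) in shNT and 18.0% ± 7.07 (SD, n = 4) in shRNA libraries (exact two-sided permutation p = 0.151). Reads aligned at several places came to 12.5% ± 1.22 (SD, n = 5) and 10.1% ± 1.22 (SD, n = 4), which did differ (exact two-sided permutation p = 0.0159), and their part in the members' differences was not tested. A further fit adjusted for the percentage outside exons, and not for reads aligned at several places. Its log2 fold changes were 1.01 for Npas4, 0.98 for Arc, 0.86 for Nr4a2 and 0.64 for Nr4a3. Each of these had an unadjusted p under 0.05, whereas Nr4a1 (0.31) and Inhba (0.28) did not. Leaving out shNT replicate 2 and shRNA replicate 4 together removed the libraries with the highest shares outside exons in their groups. The remaining shares were 9.77% to 11.3% in shNT and 12.4% to 19.8% in shRNA libraries. The groups no longer overlapped in this share, so that fit cannot tell group and share apart. The log2 fold changes were then 1.37 for Npas4, 1.00 for Nr4a3, 1.00 for Arc, 0.91 for Nr4a2, 0.88 for Inhba and 0.28 for Nr4a1. At an unadjusted p under 0.05, 5 of the 10 were then higher (Nr4a1 no longer) and 0 lower, beside 19.2% and 9.05% of all genes. In the 7 libraries with transcripts of both sexes, Npas4 had a log2 fold change of 1.07, Arc and Nr4a2 1.15 each, Inhba 0.86, Nr4a3 0.75 and Nr4a1 0.43. On the higher side an unadjusted p under 0.05 was reached there by Npas4, Arc and Nr4a2, beside 10.6% of all genes. None of the other 3 reached it, Dusp1 did on the lower side (-0.46), and 0 of the 10 were called.

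Compared per length (RPKM over annotated exons), the levels of the 10 genes in the shNT libraries spanned the range of expressed genes. Scg2 (182.5 ± 25.4 RPKM, SD, n = 5) and Vgf (121 ± 25.2 RPKM) lay at percentiles 97.9 and 96.5 of the genes tested. Dusp1 followed at 23.8 ± 4.47 RPKM, then Arc at 9.01 ± 4.22, Nptx2 at 7.06 ± 0.748 and Nr4a1 at 5.51 ± 1.59 RPKM. Nr4a2 (2.03 ± 0.739), Nr4a3 (1.13 ± 0.397), Inhba (0.620 ± 0.281) and Npas4 (0.384 ± 0.179 RPKM) were lowest, Npas4 at percentile 12.2. Among neighbours in this order the libraries of Scg2, Vgf, Dusp1 and Arc did not overlap, nor did those of Nr4a1 and Nr4a2, whereas Arc, Nptx2 and Nr4a1 overlapped in turn, as did Nr4a2, Nr4a3, Inhba and Npas4. In the shRNA libraries Arc (20.5 ± 5.40 RPKM, SD, n = 4) stood level with Dusp1 (19.6 ± 2.11 RPKM), their ranges overlapping, and the Nr4a genes kept the order 8.23, 4.22 and 1.96 RPKM for Nr4a1, Nr4a2 and Nr4a3. No other annotated gene overlapped an exon of any of the 10, so counting without strand mixed in no known neighbour.

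The genes around these 10 were taken from 8 lists by function, and from each list the 2 genes with the lowest p are given. Beside each count of a list stand the shares over all genes tested, 1.74% called higher and 0.0133% lower, and, with an unadjusted p under 0.05, 20.7% higher and 13.4% lower. Without shNT replicate 2 and shRNA replicate 4 together these shares at an unadjusted p were 19.2% and 9.05%, and 4.75% were called higher. Of 22 tested other activity-induced transcription factors and early genes, 0 were called, and an unadjusted p under 0.05 was reached by 8 in the higher direction and 0 in the lower (20.7% and 13.4% of all genes), with a median log2 fold change of 0.27. Without shNT replicate 2 and shRNA replicate 4 the counts were 6 higher and 2 lower of 20, the lower ones being Fos and Ier2. Klf10, a zinc finger repressor, stood at 5.04 to 11.7 CPM in shNT and 14 to 28.1 CPM in shRNA libraries (log2 fold change 1.11, edgeR quasi-likelihood FDR = 0.0544). Jun, a part of the AP-1 factor, stood at 29.5 to 44.7 and 53.0 to 169 CPM (1.20, FDR = 0.0630), with 169 CPM in shRNA replicate 4. Outside the rule of naming, Fos had a log2 fold change of -0.44 (edgeR quasi-likelihood FDR = 0.270) and Egr1 one of 0.64 (FDR = 0.126).

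Of 19 other activity-induced effectors, 2 rose past the call and 0 fell, beside 1.74% and 0.0133% of all genes. Sorcs3, a sorting receptor of neurons, stood at 5.34 ± 1.37 CPM (SD, n = 5) in shNT and rose to 13.6 ± 1.13 CPM (SD, n = 4) in shRNA libraries (log2 fold change 1.35, edgeR quasi-likelihood FDR = 0.0403). Ptgs2, which makes the inducible enzyme of prostaglandin synthesis, rose from 3.34 ± 1.18 to 8.41 ± 1.52 CPM (1.33, FDR = 0.0433). Both calls were kept without shNT replicate 2 and shRNA replicate 4 together and lost in other fits, given with those of the other lists below. At an unadjusted p under 0.05 there were 6 higher and 3 lower of 19, beside 20.7% and 13.4% of all genes, and the median was 0.01. The 3 lower ones, outside the rule of naming, were Rgs2 (-0.63, edgeR quasi-likelihood FDR = 0.0854), Gadd45g (-0.47, FDR = 0.107) and Gadd45b (-0.50, FDR = 0.123). Leaving out shNT replicate 2 and shRNA replicate 4 gave 7 higher and 2 lower (Rgs2 and Gpr3), beside 19.2% and 9.05% of all genes.

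Upstream of these genes, an unadjusted p under 0.05 was reached by 9 of 22 regulators, all higher (20.7% of all genes), 0 were called, and the median log2 fold change was 0.30. Ep300, an acetyltransferase that CREB recruits, stood at 19.3 to 37.9 CPM in shNT and 42.9 to 53.4 CPM in shRNA libraries (0.83, edgeR quasi-likelihood FDR = 0.0503), and Camk4, a nuclear calcium-dependent kinase, at 39.4 to 51.5 and 58.7 to 73.6 CPM (0.53, FDR = 0.0544). Neither overlapped between groups, as in 8.97% of all genes. When shNT replicate 2 and shRNA replicate 4 were left out, 8 of the 22 were higher and Ep300 was called (0.86, edgeR quasi-likelihood FDR = 0.0464). Among 6 partners of the Nr4a and Npas4 proteins 2 were higher at an unadjusted p under 0.05 (20.7% of all genes) and 0 were called. These were Rcor1 (0.37, edgeR quasi-likelihood FDR = 0.0954), a corepressor that binds Nr4a2, and Arnt (0.61, FDR = 0.0975), a partner of Npas4.

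Among 9 partners of Arc and the pentraxins, an unadjusted p under 0.05 was reached by 4, all higher (20.7% of all genes), and 0 were called. Nptx1, a relative of Nptx2, stood at 51.3 to 120 CPM in shNT and 148 to 217 CPM in shRNA libraries (1.04, edgeR quasi-likelihood FDR = 0.0594), and Nptxr, the pentraxin receptor, at 10.3 to 23.0 and 23.1 to 37.4 CPM (1.00, FDR = 0.0621). The groups were apart for both, with shRNA above as in 8.97% of all genes, though for Nptxr shNT replicate 3 and shRNA replicate 1 nearly met. Nptx2 itself was not higher in shRNA libraries. The likelihood ratio test called 3 of the 9 higher, beside 11.2% of all genes.

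In the activin pathway 1 of 13 tested genes was called, beside 1.74% of all genes higher. Acvr1c, a type I receptor of the activin family, stood at 3.03 ± 0.76 CPM (SD, n = 5) in shNT and rose to 8.16 ± 1.36 CPM (SD, n = 4) in shRNA libraries (log2 fold change 1.43, edgeR quasi-likelihood FDR = 0.0403). Acvr2a, a type II receptor, stood at 16.8 to 23.2 and 25.5 to 44.9 CPM (0.78, FDR = 0.0526). At an unadjusted p under 0.05, 5 of the 13 were higher and 0 lower, beside 20.7% and 13.4% of all genes, and the median was 0.47. Of the 12 tested without shNT replicate 2 and shRNA replicate 4, 3 were higher, beside 19.2% of all genes. The likelihood ratio test called 4 of the 13 higher, beside 11.2%.

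Of 13 granin and secretory granule genes 1 was called, beside 1.74% of all genes higher. Cadps2, which primes dense-core vesicles for release, stood at 10.9 ± 4.35 CPM (SD, n = 5) in shNT and rose to 27.1 ± 2.88 CPM (SD, n = 4) in shRNA libraries (log2 fold change 1.31, edgeR quasi-likelihood FDR = 0.0433). Pcsk2, a convertase that cuts granins, stood at 31.5 to 58.1 and 60.6 to 78.0 CPM (0.62, FDR = 0.0706). At an unadjusted p under 0.05, 2 of the 13 were higher and 2 lower, near the 20.7% and 13.4% of all genes, and the median was -0.03. The 2 lower ones, outside the rule of naming, were Pcsk1n (-0.78, edgeR quasi-likelihood FDR = 0.0854) and Scg5 (-0.62, FDR = 0.0913), which encode an inhibitor and a chaperone of the convertases.

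Of 12 tested other Dusp phosphatases and their kinase targets 0 were called, and 0 had an unadjusted p under 0.05 in either direction (20.7% and 13.4% of all genes). Without shNT replicate 2 and shRNA replicate 4, 2 of the 12 were higher at that limit, Dusp5 (0.45) and Mapk8 (0.44), beside 19.2% of all genes. The 2 lowest p were those of Dusp5 (0.37, edgeR quasi-likelihood FDR = 0.174) and Dusp6 (0.29, FDR = 0.2), phosphatases of ERK. The likelihood ratio test and DESeq2 called 0 of the 12 as well. Over the 8 lists the quasi-likelihood test called 4 genes, Sorcs3, Ptgs2, Acvr1c and Cadps2, all higher in the shRNA libraries. With 1 library left out at a time, Sorcs3, Ptgs2 and Acvr1c were called in 4 of 9 fits and Cadps2 in 3. All of them missed the threshold without shNT replicate 3 (FDR = 0.0744), shNT replicate 4 (0.155), shNT replicate 5 (0.169), shRNA replicate 1 (0.086) or shRNA replicate 3 (0.121), and Cadps2 also without shRNA replicate 4 (0.0754, all by edgeR's quasi-likelihood test). Their log2 fold changes over these fits stayed between 1.06 and 1.54. The likelihood ratio test and DESeq2 called all 4. None of the 4 was called within name set 31 (edgeR quasi-likelihood FDR = 0.167 to 0.227), with reads outside exons as a covariate (0.0786 to 0.0929), with exon length offsets (0.0851 to 0.088), with library size only (0.0708) or in the libraries with both sexes (0.157).

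**Figure D4:**
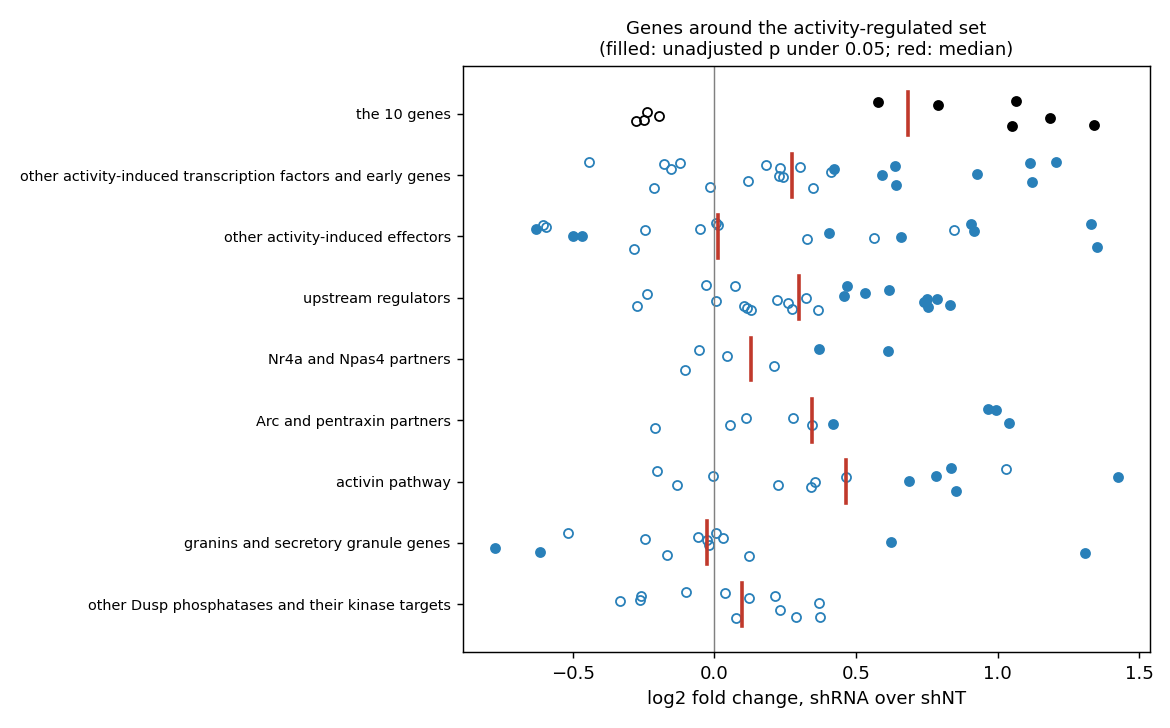
Log2 fold change of shRNA over shNT for the 10 genes (black) and for 8 lists of related genes (blue), 1 point per gene, filled where the unadjusted p was under 0.05 in edgeR's quasi-likelihood test, with the median of each list as a red bar. The medians run from -0.03 for granin and secretory granule genes to 0.68 for the 10 genes, and points of the Dusp list are all open.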

How the data were processed

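Ribosome-associated RNA was sequenced from 9 pooled samples. Per the labels and methods, the authors aligned reads to mm9 with STAR, counted unique reads per gene with HTSeq 0.6.0 without strand, and deposited raw counts. Names, positions and exon lengths came from GENCODE for the same build, which named 37205 of 37620 identifiers.

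The filter kept 15069 genes that reached 1 CPM in some sample and removed 22551. Counts were normalised with TMM and tested in R 4.3.3 with edgeR 4.0.16 (quasi-likelihood, condition only). The biological coefficient of variation was 0.303. edgeR's likelihood ratio test, DESeq2 1.42.0, other scalings and filters, covariates and each library left out served as alternatives. Single values were compared by exact two-sided permutation of the sample labels. The methods were tested on simulated data. Marker levels are means of log2 CPM (prior count 2).

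Libraries of a group differed beyond sampling noise (chi-square per degree of freedom 20.1 to 215), so each counted as 1 replicate. Whether they came from separate rounds of surgery is not stated, so p-values measure the spread between these samples. Counting error at 18281719 to 34578837 reads is small except for Npas4 and Inhba. Of each list the 2 genes with the lowest p were named, beside the 10 genes and markers that moved with them. The 10 genes and the lists were chosen with earlier results of these data known. Lamp5 and Ndnf were not matched by name, and Maff, Fstl3, Dusp9 and Aqp1 did not pass the filter.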

Additional observations from a re-analysis of the deposited data

Results flagged for a closer look

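No member's level stood apart within its group, but 5 values of library measures did, out of 46 groups of values examined, where chance alone gives about 2.3 (1 in 20). The PV IN marker level of shNT replicate 2 was -0.4711 on the log2 scale relative to the shNT mean, with the next shNT library at 0.05256. In the same library 18.57% of reads fell outside exons, with the next shNT library at 11.32%. The astrocyte marker level of shRNA replicate 4 was 2.725, with the next shRNA library at 0.6903. The marker level of other interneurons in shRNA replicate 4 was 0.187, with the other shRNA libraries at 0.3974 to 0.4081. The microglia marker level of shRNA replicate 2 was 0.1654, with the others at 0.3391 to 0.3622. Without shNT replicate 2 and shRNA replicate 4 together, the log2 fold changes were 1.37 for Npas4, 1.00 for Arc and 0.91 for Nr4a2, and 0 of the 10 genes were called by edgeR's quasi-likelihood test.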

How the results depend on the processing

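Over all alternatives, 215 log2 fold changes of the 10 genes were scored as unchanged, 12 came to pass the threshold and 3 changed direction. These 3, with reads outside exons as a covariate, were Nptx2 (0.109), Vgf (0.124) and Scg2 (0.0275). The 215 include the differences in log2 CPM used for permutation, which have no FDR and were scored on direction only. As 0 of the 10 genes were called in the reported fit, no call could be lost. Of the 10 genes, 4 were called higher by the likelihood ratio test and 4 by DESeq2, 2 with no filter on low counts (Arc and Nr4a2), and 0 to 2 with each library left out. Over all genes, higher and lower calls numbered 1688 and 542 by the likelihood ratio test, 1532 and 833 by DESeq2, and 501 and 14 with no filter. They were 199 and 1 with DESeq2 size factors, 352 and 8 with at least 1 CPM in 4 samples, and 376 and 1 with the name set as a term (262 and 2 as reported). Higher calls were 678 without shNT replicate 2 and shRNA replicate 4 together. Both counts were 0, where unadjusted p under 0.05 numbered 5258, 1493, 4479, 4307 and 3363 (5133 in the reported edgeR quasi-likelihood fit), with library size only, name set 31 only, the covariate, exon length offsets, and the 7 libraries with both sexes. The cause was not tested.

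The replicate numbers are not stated to pair the samples, and same-numbered samples had deviations correlated at -0.267, -0.641, 0.486 and -0.181. Only shRNA replicate 3 correlated best with its own number. With the replicate block 29 genes were called higher and 0 lower (1882 had an unadjusted p under 0.05), 0 of them among the 10, and the log2 fold changes were 1.22 for Npas4, 1.09 for Arc and 1.02 for Nr4a2. Sorcs3, Ptgs2, Acvr1c and Cadps2 were not called with it (edgeR quasi-likelihood FDR = 0.16 to 0.209).

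With each library left out in turn, calls over all genes ran from 0 to 1007 higher and 0 to 410 lower, with the highest of both without shNT replicate 1. The difference in the share outside exons (5.89 percentage points) ran from 2.81 to 7.75. The endothelial difference (-0.0807) ran from -0.811 to 0.373 and the mural one (0.0719) from -0.59 to 0.374. The median log2 fold change of all genes moved from 0.114 with TMM to 0.0693 with DESeq2 size factors, 0.168 with library size only and -0.00173 with exon length offsets, and 6 of the 10 genes stayed above 0 under each. Depth limits Npas4 and Inhba, each with 12 counts in shNT replicate 4.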
